A study of Mus musculus with 6 samples.

Results

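The machinery that cuts and rejoins antigen receptor genes was followed through 10 mouse genes: Rag1, Rag2, Dntt, Xrcc4, Nhej1, Xrcc5, Xrcc6, Prkdc, Lig4 and Dclre1c. Every non-control probe carrying a RefSeq transcript of these genes was taken, which gave 15 probes among the 55681 on the array and 10 genes among the 20667 that could be named. Of the 10 genes, 7 had 1 probe, Rag1 and Rag2 had 2 each, and Dclre1c had 4. The scanner software placed 8 of the 15 probes well above background on all 6 arrays, 6 on some arrays and 1 on none. RNA came from fetal liver at stage E18.5, in mice of C57BL6/J background, and was hybridised to 1-colour Agilent expression arrays labelled with Cy3. The 6 arrays held 1 sample for each combination of genotype (wild type, or null for the chromatin organiser Satb1) and freshly isolated population, the wild type embryos being littermates of the Satb1-null ones. Among Lin- cells, those with high c-kit and Sca-1 were divided into a Flt3- fraction enriched for haematopoietic stem cells (HSC) and a Flt3+ fraction enriched for lymphoid-primed multipotent progenitors (LMPP). Common lymphoid progenitors (CLP) were enriched by low c-kit, low Sca-1 and the presence of IL7Rα. Each sample supplied 6.1 ng of total RNA, which was amplified to cDNA. The number of embryos behind a sample, and whether the 3 populations of a genotype shared them, is not stated in the labels. With 1 array a group there is no replicate, so differences between 2 arrays carry no test.

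V(D)J recombination assembles immunoglobulin and T cell receptor genes from separate segments in lymphoid progenitors. The RAG1 and RAG2 proteins cut the DNA beside the segments, Ku (encoded by Xrcc5 and Xrcc6) binds the broken ends, and the kinase encoded by Prkdc works with the nuclease Artemis (Dclre1c) to open the hairpins that the cut leaves. Terminal transferase (Dntt) adds untemplated bases, and DNA ligase IV (Lig4) seals the ends with its partners Xrcc4 and Nhej1. The recombinase genes and Dntt are known as genes of early lymphocytes, whereas the joining factors repair double strand breaks in all cells.

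The 250 bases before the annotated start are shown for Rag1, Rag2, Xrcc4 and Nhej1, which each had a probe at least 2-fold brighter on the null-labelled CLP array than on the wild type one, and for Dntt, which did not. Prkdc was also at least 2-fold brighter in null-labelled CLP but had no promoter window available. Sequences and starts are RefSeq's for GRCm38.p6 and run 5′ to 3′ in the direction of transcription. Capitals mark CANNTG, the letters of an E box, which E proteins bind. The windows are chr2:101649533-101649782 (minus strand) for Rag1, chr2:101624462-101624711 (plus) for Rag2 and chr19:41029025-41029274 (plus) for Dntt. Those of Xrcc4 and Nhej1 are chr13:90089609-90089858 (minus) and chr1:75125227-75125476 (minus).
Rag1: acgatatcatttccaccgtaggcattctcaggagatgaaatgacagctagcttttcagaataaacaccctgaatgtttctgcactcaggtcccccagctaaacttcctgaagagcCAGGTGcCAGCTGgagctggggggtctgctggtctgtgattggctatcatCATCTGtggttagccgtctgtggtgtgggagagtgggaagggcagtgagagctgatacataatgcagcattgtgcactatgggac
Rag2: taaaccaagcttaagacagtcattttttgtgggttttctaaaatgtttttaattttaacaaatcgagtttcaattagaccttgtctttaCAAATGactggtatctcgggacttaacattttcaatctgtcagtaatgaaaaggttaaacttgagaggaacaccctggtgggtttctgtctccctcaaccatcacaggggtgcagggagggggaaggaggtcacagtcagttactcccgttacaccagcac
Dntt: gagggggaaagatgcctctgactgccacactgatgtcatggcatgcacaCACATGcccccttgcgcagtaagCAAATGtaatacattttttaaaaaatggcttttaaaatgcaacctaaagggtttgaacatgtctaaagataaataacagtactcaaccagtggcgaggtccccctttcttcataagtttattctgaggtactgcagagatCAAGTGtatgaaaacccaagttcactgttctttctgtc
Xrcc4: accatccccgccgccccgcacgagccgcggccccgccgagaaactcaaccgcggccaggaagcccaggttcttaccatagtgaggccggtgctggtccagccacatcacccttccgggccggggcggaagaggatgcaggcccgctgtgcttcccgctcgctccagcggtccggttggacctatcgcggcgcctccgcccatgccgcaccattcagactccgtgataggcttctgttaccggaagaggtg
Nhej1: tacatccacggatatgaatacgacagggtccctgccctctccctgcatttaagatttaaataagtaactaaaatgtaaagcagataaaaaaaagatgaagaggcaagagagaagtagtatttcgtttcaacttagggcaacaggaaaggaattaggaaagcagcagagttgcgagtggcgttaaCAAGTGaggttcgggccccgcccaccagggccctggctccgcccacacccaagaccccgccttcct

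The Rag1 window held 3 E box matches, which began 135, 128 and 85 bases before the start, and the Dntt window also held 3, at 201, 178 and 38 bases. Rag2 and Nhej1 had 1 each, at 161 and 66 bases, and Xrcc4 had none. CANNTG reads the same on both strands and was present in 66.2% of the 32851 promoter windows of this length, so a match is common. In all, 9 members had 10 windows in the table, and 9 of these windows, from 8 members, held it. The letters CCAAT, searched on both strands and found in 33.8% of all windows, occurred once in Rag1, once in Xrcc5 and 3 times in Dclre1c. The forkhead letters GTAAACA (3.17% of all windows) and the letters TATAAA (12.4%), searched on both strands, matched in none of the 10 windows. These matches describe letters in a fixed window and were not related to the array values.

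Of the sort markers, Flt3, Il7r and Kit followed the gates, and Ly6a (Sca-1) did so only in part. Levels are given throughout as log2 of the processed signal minus the array's 75th percentile, so 0 stands for that percentile, and levels of different probes are not compared. Flt3 had 3.22 and 3.32 on the LMPP arrays against 0.85 to 1.78 on the other 4, and Il7r had 1.61 and 1.55 on the CLP arrays against -2.64 to 0.12 elsewhere. Kit read 2.79 and 3.74 on the CLP arrays and 4.38 to 4.64 elsewhere. Ly6a read 0.21 in wild type CLP, between the 0.14 of null-labelled LMPP and the 0.29 of wild type HSC, and was lowest in null-labelled CLP (-0.50). The Satb1 probe read -0.03, 1.998 and 0.71 on the wild type HSC, LMPP and CLP arrays and -0.59, 1.96 and 0.65 on the null-labelled ones. No source at hand places that probe inside or outside the deleted stretch. It therefore does not check the labels, and the arrays are called null-labelled. Xist, the RNA of the inactive X chromosome, read 4.18 to 4.74 on the null-labelled arrays and was not well above background on the wild type ones. Wild type arrays lay in row 1 and null-labelled arrays in row 2 of 1 slide. Genotype, Xist signal and slide row therefore cannot be told apart.

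Rag1, the catalytic part of the recombinase, was brightest on the null-labelled CLP array by both of its probes. Probe A_51_P232411 read -6.10 (not well above background), -2.48 and -1.88 on the wild type HSC, LMPP and CLP arrays and -2.59, -2.84 and 0.52 on the null-labelled arrays in the same order. Probe A_55_P2043297 read -4.83, -3.07 and -1.53 in wild type and -5.30, -3.28 and -0.36 in null-labelled samples, with both HSC arrays not well above background. Both probes thus placed CLP above LMPP in each genotype, and they parted on the null-labelled HSC array, where 1 of them was measured and the other was not. In CLP the null-labelled array exceeded the wild type one by 2.40 (5.28-fold) with the first probe and by 1.18 (2.26-fold) with the second, where the scanner's own error of either difference was 0.15. In LMPP the same differences were -0.37 and -0.22. In HSC the first probe was at least 2.71-fold brighter on the null-labelled array, a bound set by the weakest signal well above background on the wild type array. The Rag1 transcript was thus brighter on the null-labelled array in CLP by each probe, whereas the HSC difference rested on 1 probe.

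**Figure D1:**
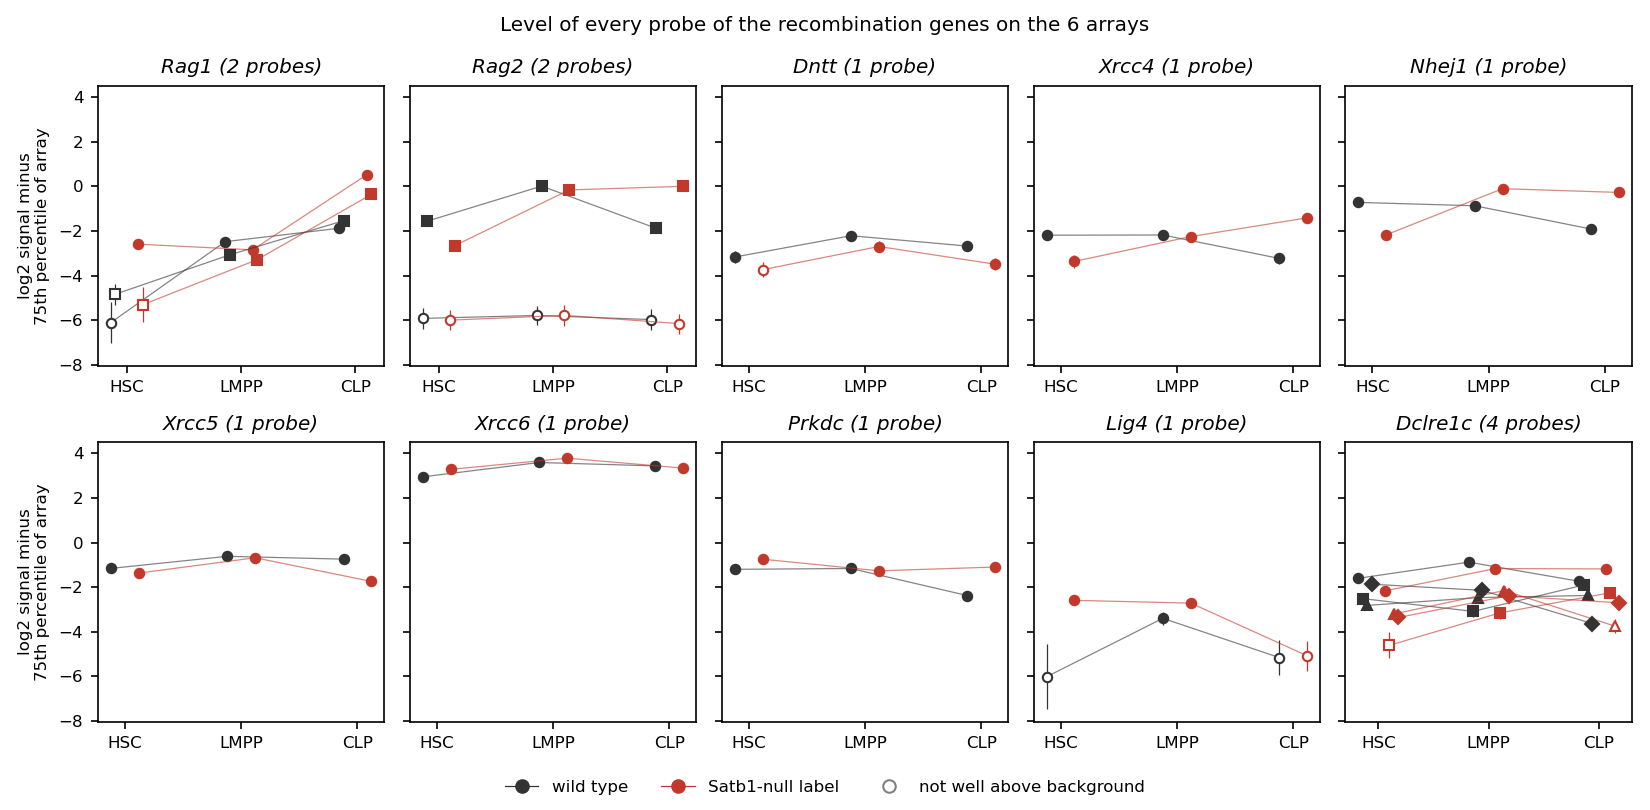
Level of each of the 15 probes (log2 signal minus the array's 75th percentile, vertical axis) in HSC, LMPP and CLP for wild type (black) and null-labelled (red) samples, with the scanner's error as bars, open symbols for probes not well above background and a symbol shape for each probe of a gene. Rag1 was highest on the null-labelled CLP array at 0.52 and -0.36, and Xrcc6 stayed between 2.95 and 3.79 on all arrays.

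Rag2, the partner that RAG1 needs to cut, followed another course over the populations. Its measured probe, A_66_P105784, read -1.56, 0.01 and -1.87 on the wild type HSC, LMPP and CLP arrays and -2.66, -0.16 and 0.00 on the null-labelled ones. LMPP was the high point of the wild type series, while the null-labelled CLP array stayed at its LMPP level. From LMPP to CLP the Rag2 difference was -1.89 in wild type and 0.16 in null-labelled samples. Over the same step Rag1 differed by 0.60 and 1.54 in wild type and by 3.37 and 2.93 in null-labelled samples. On the wild type arrays the recombinase partners therefore moved opposite ways between LMPP and CLP, and this pattern was not present on the null-labelled arrays. That contrast was not tested, since each value is a difference of 2 single arrays. Between genotypes Rag2 was lower by 1.1 on the null-labelled array in HSC (scanner error 0.24), near equal in LMPP (-0.17, error 0.21) and higher by 1.88 in CLP (error 0.22). The second Rag2 probe, A_52_P259521, lay between -6.15 and -5.78 and was well above background on no array, so it gives no comparison.

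Dntt, which adds untemplated bases at the joints, was dim in every sample and brightest in LMPP. Its probe read -3.17, -2.21 and -2.68 on the wild type HSC, LMPP and CLP arrays and -3.73 (not well above background), -2.70 and -3.49 on the null-labelled ones. In each population the null-labelled array was the dimmer, by at least 0.57 in HSC, 0.48 in LMPP and 0.81 in CLP. Both measured differences, in LMPP and CLP, were under 2-fold, with scanner errors of 0.29 and 0.35. The HSC value (error 0.42) is a bound and does not show whether 2-fold was reached. The direction in CLP was thus opposite to that of both recombinase genes.

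Xrcc4 and Nhej1, which hold and support ligase IV at the ends, showed the same signs as Rag2 in HSC and CLP. Xrcc4 read -2.19, -2.18 and -3.23 in wild type and -3.36, -2.25 and -1.41 in null-labelled HSC, LMPP and CLP. Nhej1 read -0.72, -0.87 and -1.91 in wild type and -2.17, -0.10 and -0.27 in null-labelled samples. In wild type cells both were dimmest in CLP, and in null-labelled cells both were dimmest in HSC. In CLP the null-labelled array was brighter by 1.82 for Xrcc4 (3.53-fold, scanner error 0.30) and by 1.64 for Nhej1 (3.12-fold, error 0.22). In HSC it was dimmer by 1.17 for Xrcc4 (error 0.33) and 1.45 for Nhej1 (error 0.22). In LMPP the differences were -0.07 and 0.77.

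Lig4, the ligase itself, differed between genotypes with the opposite sign to Xrcc4 and Nhej1 in HSC and gave no genotype comparison in CLP. Its probe was well above background on 3 arrays, with -3.39 in wild type LMPP, -2.59 in null-labelled HSC and -2.71 in null-labelled LMPP. Both CLP arrays and the wild type HSC array were not well above background, so the ligase transcript was not measurable in CLP of either genotype. In HSC the null-labelled array was at least 2.72-fold brighter, and in LMPP it was brighter by 0.68 (scanner error 0.36). Nhej1 differed by 0.77 and Xrcc4 by -0.07 in LMPP.

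The Ku genes, whose products bind the broken ends, were measured on every array and, of the 8 probes for which this held, had the smallest ranges. Xrcc6 ranged over 0.84 (from 2.95 in wild type HSC to 3.79 in null-labelled LMPP), and its genotype differences were 0.34, 0.19 and -0.10 in HSC, LMPP and CLP. Xrcc5 read -1.15, -0.61 and -0.74 in wild type and -1.37, -0.68 and -1.74 in null-labelled samples. Its CLP difference of -0.998 fell just short of 2-fold and had the opposite sign to those of Xrcc4 and Nhej1. It passed 2-fold when centred on the median (-1.07) or on detected probes (-1.03) and in the authors' processed values (-1.01). Among the differences counted, that of Dclre1c probe A_52_P462203 between LMPP and HSC in null-labelled samples was just past it, at 1.003.

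Prkdc, the kinase that Ku recruits, was spotted 10 times on each array and so had the smallest scanner error. It read -1.20, -1.16 and -2.37 in wild type and -0.74, -1.26 and -1.09 in null-labelled HSC, LMPP and CLP, with SDs over its spots of 0.14 to 0.29. The wild type CLP array stood below the other 5. Between genotypes it differed by 0.45 in HSC, by -0.10 in LMPP and by 1.28 in CLP (2.43-fold, scanner error 0.07). These spots share 1 RNA sample an array, so their spread covers measurement within the array only.

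Dclre1c, the hairpin opening nuclease, was read by 4 probes that did not move together. Probes A_52_P462203 and A_55_P2129291 carry transcript NM_146114, and A_55_P2067116 and A_55_P2067131 carry NM_175683. In CLP the NM_146114 probes were 0.56 and 0.93 brighter on the null-labelled array, and the NM_175683 probes were 0.35 and at least 1.37 dimmer. In HSC all 4 were dimmer on the null-labelled array, by 0.57 and 1.49 for NM_146114 and by at least 1.52 and 0.38 for NM_175683. In LMPP they differed by -0.29, -0.24, -0.07 and 0.32. Probe A_55_P2129291 had its lowest level, -3.63, on the wild type CLP array, where A_55_P2067116 had its highest, -1.90. The sources used here do not place the probes on the transcripts.

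In CLP, 6 of the 13 member probes that could be compared were at least 2-fold brighter on the null-labelled array and 1 was at least 2-fold dimmer. The brighter ones belong to 5 genes: Rag1 (both probes), Rag2, Xrcc4, Nhej1 and Prkdc, and the dimmer one to Dclre1c. Over all probes compared, 12.5% were 2-fold brighter and 10.8% dimmer (12.5% and 8.95% of those with a gene name). The median member difference was 0.93, beside -0.02 over all probes. Centring on the median, the authors' processed values and centring on detected probes each gave 6 brighter and 2 dimmer. Normexp with quantile normalisation gave 3 brighter and 0 dimmer, the mean over a gene's probes 4 and 0 of 9 genes, and a 3-fold threshold 4 and 0. The signals give RNA in a pool, so fewer cells with a transcript and less of it per cell cannot be told apart.

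**Figure D2:**
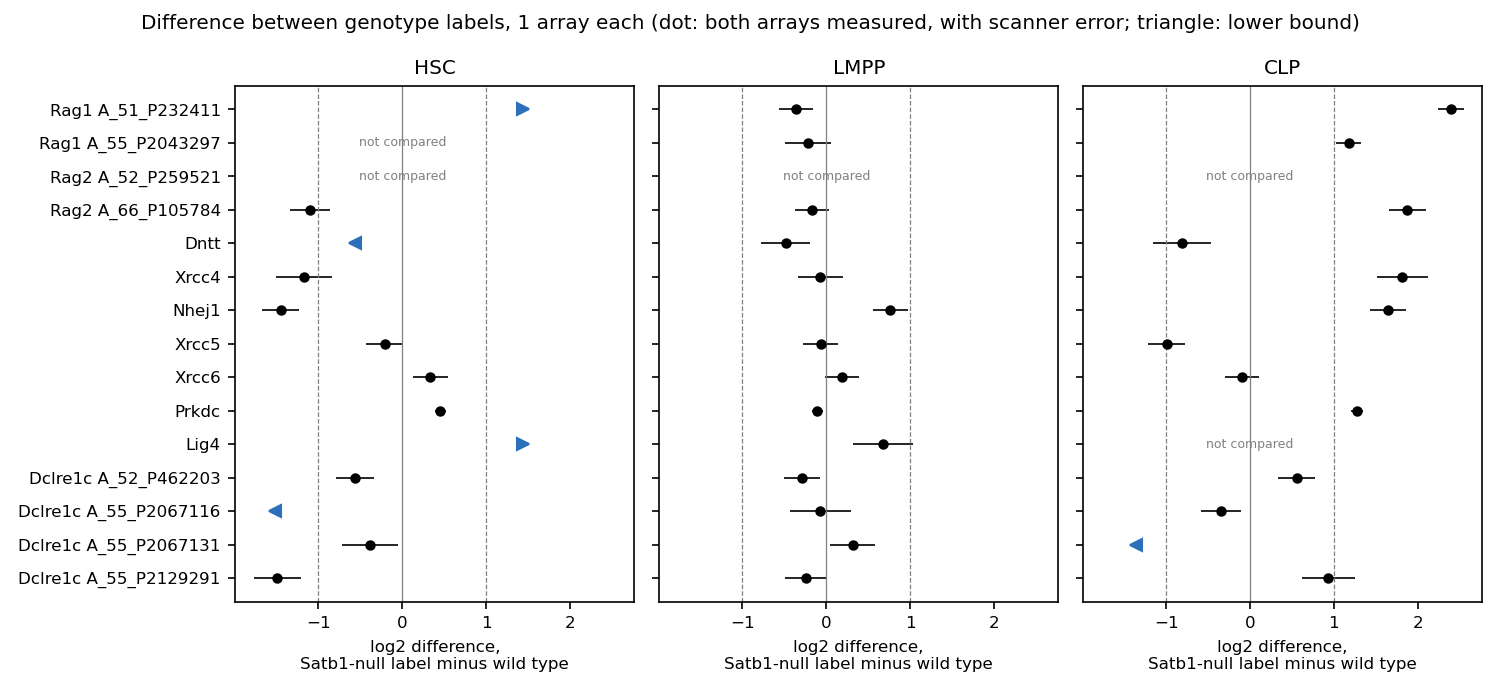
Difference in log2 signal between the null-labelled and the wild type array (horizontal axis) for each member probe in HSC, LMPP and CLP; dots with bars are differences measured on both arrays with the scanner's error, triangles are lower bounds, and dashed lines mark 2-fold. In CLP 6 probes lie to the right of the 2-fold line and 1 to the left, while in LMPP none of the 14 probes crosses either line.

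In LMPP none of the 14 member probes compared reached 2-fold between the genotypes in either direction, where 7.11% of all probes were brighter and 5.94% dimmer (5.86% and 4.39% of those with a gene name). The largest member differences there were 0.77 for Nhej1 and 0.68 for Lig4. The member median was -0.09, beside -0.07 over all probes.

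In HSC, 2 of 13 member probes were at least 2-fold brighter on the null-labelled array (Rag1 and Lig4, both as bounds) and 5 were dimmer. The dimmer probes belong to Rag2, Xrcc4, Nhej1 and, with 2 probes, Dclre1c. Over all probes 7.91% were brighter and 10.7% dimmer (8.4% and 6.26% of those with a gene name), and the medians were -0.57 for the members and 0.00 for all probes. Centred on the median, 2 were brighter and 3 dimmer, with Rag2 at -0.89 and Xrcc4 at -0.97. With normexp and quantile normalisation none of the 13 was past 2-fold, and no reported value reached 3-fold, though 3 of the 7 past 2-fold are bounds.

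From HSC to LMPP the members that were 2-fold apart were all brighter in LMPP. In wild type these were Rag1 (at least 2.93-fold, 1 probe) and Rag2 (2.97-fold), 2 of 14 probes, beside 6.51% of all probes brighter and 10.8% dimmer (7.43% and 6.88% of those with a gene name). In null-labelled samples 6 of 14 probes were brighter, beside 8.49% brighter and 9.76% dimmer over all probes (7.37% and 8.54% of those with a gene name). They were Rag2 (5.65-fold), Nhej1 (4.19-fold), Xrcc4 (2.16-fold), Dntt (at least 2.05-fold) and 2 probes of Dclre1c. The authors' processed values gave 3 brighter in null-labelled samples, and quantile normalisation gave 5 in wild type and 7 in null-labelled samples. Normexp with quantile normalisation gave 1 and 2.

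From LMPP to CLP the wild type arrays had 2 of 14 member probes brighter (Rag1, 2.90-fold, and Dclre1c A_55_P2067116, 2.27-fold) and 5 dimmer. The dimmer ones were Rag2 (3.70-fold), Dclre1c A_55_P2129291 (2.81-fold), Prkdc (2.32-fold), Xrcc4 (2.07-fold) and Nhej1 (2.06-fold). Among all probes 13.6% were brighter and 18.2% dimmer (14.7% and 18.8% of those with a gene name), and centring on the median left 2 brighter and 2 dimmer members. On the null-labelled arrays both Rag1 probes were brighter in CLP, by 10.3-fold and 7.61-fold. There 3 others were dimmer: Xrcc5 (2.09-fold), Lig4 (at least 2.78-fold) and Dclre1c A_55_P2067131 (at least 3.01-fold), beside 13.7% brighter and 16.5% dimmer over all probes (15% and 14.9% of those with a gene name). Median centring gave 4 brighter and 2 dimmer. Normexp with quantile normalisation gave 0 brighter and 1 dimmer in wild type and 2 and 0 in null-labelled samples.

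From HSC to CLP, both Rag1 probes were brighter in wild type, by at least 4.45-fold and 5.64-fold. Xrcc4, Nhej1, Prkdc and Dclre1c A_55_P2129291 were dimmer, which makes 2 brighter and 4 dimmer of 13, beside 14.4% and 19.9% over all probes (17.8% and 16.8% of those with a gene name). This split depended on the centring: the median gave 5 brighter and 1 dimmer, and quantile normalisation 4 and 1. With normexp and quantile normalisation none was past 2-fold. In null-labelled samples 6 of 14 probes were brighter and Lig4 was dimmer, beside 13.2% and 16.2% over all probes (14.8% and 14.7% of those with a gene name), and normexp with quantile normalisation gave 4 and 0. The brighter ones were both Rag1 probes (8.67-fold and at least 12.8-fold), Rag2 (6.33-fold), Xrcc4 (3.87-fold), Nhej1 (3.73-fold) and Dclre1c A_55_P2067116 (at least 3.45-fold). Xrcc4 and Nhej1 therefore differed between HSC and CLP in opposite directions in the 2 genotypes, which was not tested. Over the alternatives the wild type difference lay between -1.28 and -0.12 for Xrcc4 and between -1.43 and -0.61 for Nhej1.

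A fit of genotype and population over all 6 arrays with limma, on the 33088 probes well above background on at least 2 arrays, called no member probe in any contrast after Benjamini-Hochberg adjustment at 0.05. Over all probes the fit called 0.00907% higher and 0% lower for genotype, and 0% in either direction for LMPP minus HSC. It called 1.25% higher and 0.895% lower for CLP minus LMPP, and 1.04% and 0.916% for CLP minus HSC. The fit left 2 residual degrees of freedom and assumes the same genotype effect in each population. Of the 14 member probes in the fit, the number at an unadjusted p under 0.05 was 1 for genotype, 1 for LMPP minus HSC, 2 for CLP minus LMPP and 3 for CLP minus HSC. The nearest to a call was Rag1 by A_55_P2043297, at 3.09 (SE 0.43, limma adjusted p = 0.0577) for CLP minus HSC and 2.23 (SE 0.43, adjusted p = 0.0858) for CLP minus LMPP. On both CLP arrays this probe was brighter than on any of the other 4. Rag1 by A_51_P232411 had 2.63 (SE 0.71, limma adjusted p = 0.138) and 1.99 (SE 0.71, adjusted p = 0.218). Its CLP minus LMPP estimate was 0.84 without the null-labelled LMPP array, 1.05 without the null-labelled CLP array and 3.13 without the wild type LMPP array, and its CLP minus HSC estimate was 1.70 without the null-labelled CLP array. The adjusted p of A_55_P2043297 for CLP minus HSC lay between 0.0267 and 0.247 over the alternatives, and it passed with the median as centre. The mean over both Rag1 probes passed as well, at 3.85 (SE 0.58, limma adjusted p = 0.0405). That estimate exceeds those of both probes, because probes were averaged before values not well above background were raised. It therefore rests in part on HSC signal below background and is no separate measure of Rag1.

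For genotype, the member with the lowest p was Dntt, at -0.62 (SE 0.21, limma adjusted p = 0.783), dimmer on the null-labelled array in 3 of 3 populations. Rag1 had 1.16 (SE 0.58) and 0.32 (SE 0.35), and Rag2 0.20 (SE 0.63), all with limma adjusted p of 0.783 or more. Single arrays moved the Rag1 estimates: that of A_51_P232411 was 0.54 without either CLP array and 1.92 without either LMPP array, and that of A_55_P2043297 was -0.11 without either CLP array and 0.59 without either LMPP array. Xrcc4 and Nhej1, whose HSC and CLP differences had opposite signs as those of Rag2 did, had 0.19 (SE 0.62) and 0.32 (SE 0.65). With each of the 6 arrays left out in turn, the fit called no probe of any gene. A difference of the genotype effect between populations could not be fitted, since no residual degree of freedom would remain.

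**Figure D3:**
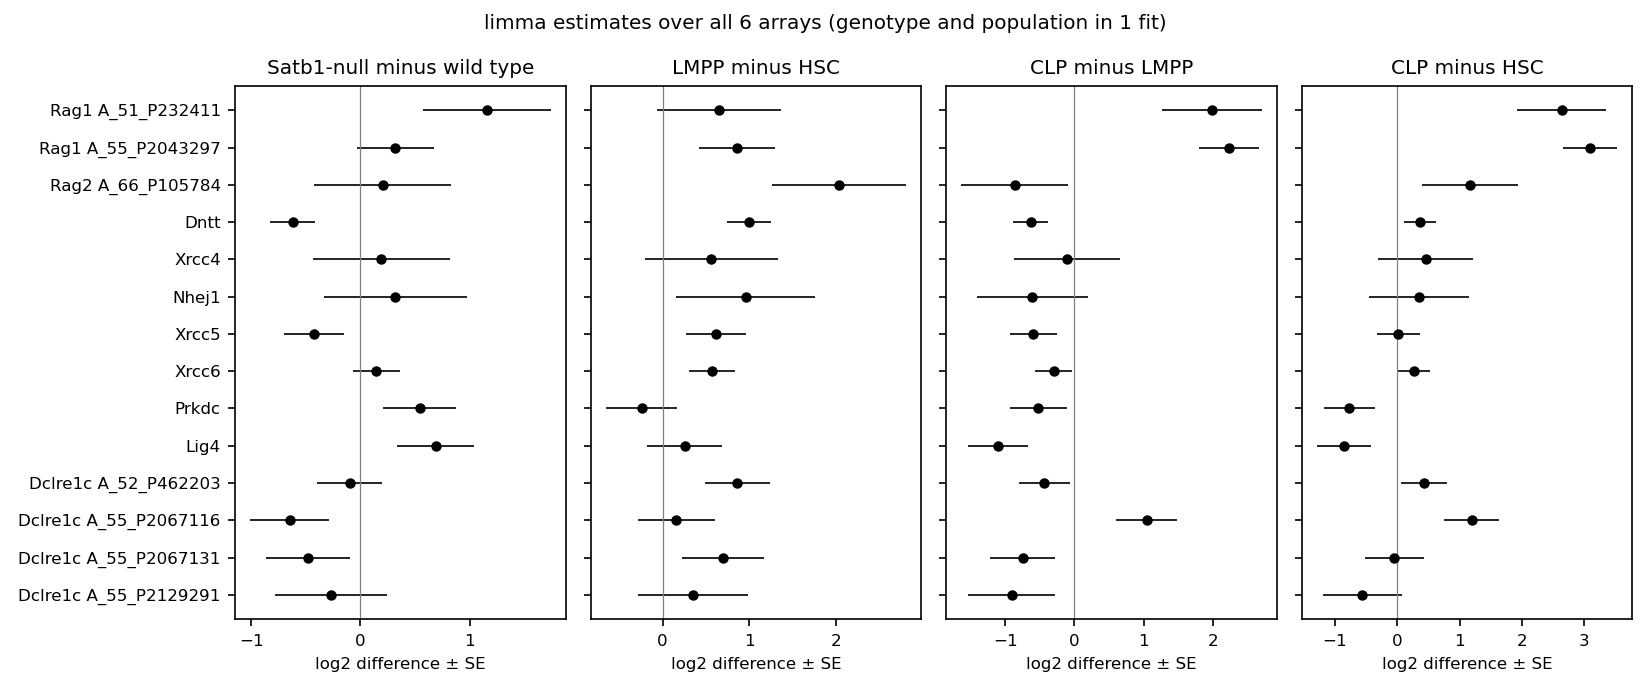
Estimates of the limma fit over 6 arrays (horizontal axis, log2 difference, bars ± SE) for the 14 member probes tested, for genotype and the 3 population contrasts. Rag1 lies farthest from 0, at 2.63 and 3.09 for CLP minus HSC, and no estimate passed the adjusted threshold.

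The summed signal of B lineage markers, like Rag1, was highest in CLP and higher there on the null-labelled array, though single markers differed in this. The marker list held 12 genes, of which 11 had a probe, and its summed linear signal was 1.31, 1.87 and 11.3 times the 75th percentile on the wild type HSC, LMPP and CLP arrays and 5.07, 3.84 and 19.9 on the null-labelled ones. The number well above background was 4, 4 and 10 in wild type and 7, 7 and 11 in null-labelled samples. Ebf1, a factor that sets up the B lineage, was well above background on the null-labelled CLP array only, at -1.94. In CLP 3 of 11 B lineage markers were at least 2-fold brighter on the null-labelled array (12.5% of all probes), in LMPP 5 of the 7 compared (7.11% of all probes) and in HSC 6 of the 8 compared (7.91%). No marker was shown to be 2-fold dimmer there (10.8%, 5.94% and 10.7% of all probes), and the medians were 0.66, 1.42 and 1.29. Cd79a, not well above background in null-labelled HSC, was dimmer there by at least 0.81. That bound does not show whether 2-fold was reached. Vpreb1, Vpreb2, Vpreb3 and Igll1 in HSC, and Igll1 and Pou2af1 in LMPP, are bounds, not well above background in wild type. Markers not well above background on either array were left out. More markers were measured on the null-labelled arrays, so the HSC and LMPP counts and medians rest mostly on markers seen there. In LMPP, then, 5 of the 7 B lineage markers compared were at least 2-fold brighter on the null-labelled array, where Rag1 (-0.37 and -0.22) and Rag2 (-0.17) were not. Cd79b differed by -0.37 there. Vpreb1, which encodes a part of the surrogate light chain, read 2.18 in wild type and 1.76 in null-labelled CLP, and Cd79b, a part of the B cell receptor, was brighter in wild type LMPP (0.39) than in wild type CLP (-0.15). The part of B lineage cells in the Rag1 and Rag2 differences was not tested.

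**Figure D4:**
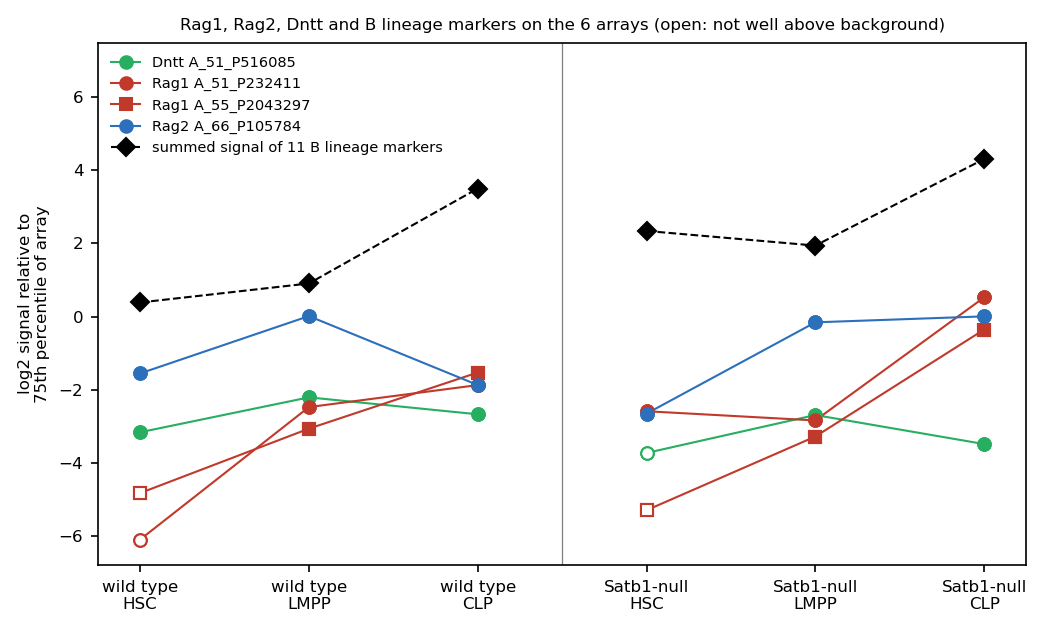
Levels of the Rag1, Rag2 and Dntt probes and log2 of the summed signal of 11 B lineage markers (vertical axis, log2 relative to the array's 75th percentile) on the 6 arrays, wild type left and null-labelled right; open symbols were not well above background. The B lineage sum was highest on the null-labelled CLP array, as was Rag1, while Dntt was lower there (-3.49) than on the wild type CLP array (-2.68).

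Markers of other cells were also present. The erythroid sum (5 of 6 genes with a probe) was 15.1 and 17.2 in wild type HSC and LMPP against 701 in wild type CLP, and 40.2, 92.5 and 753 in null-labelled samples. That of granulocytes and monocytes (5 of 6 genes) was 198 to 316 in HSC and LMPP and 585 and 548 in CLP. Megakaryocyte markers (4 genes) summed to 6.12 to 44.2, the highest being wild type CLP. T lineage markers (10 genes) summed to 3.09 to 5.92, with Cd3d, Cd3g, Cd8a, Bcl11b and Trat1 well above background on no array. Natural killer markers (5 genes) summed to 1.44 to 2.47. Of the 3 compared in CLP, 2 were over 2-fold brighter on the null-labelled array, beside 12.5% of all probes. Klrd1, a receptor subunit, read -3.04 in wild type and 0.05 in null-labelled CLP, and Gzma, a granule protease, -3.50 and -1.44. Prf1 went the other way, with null-labelled minus wild type differences of -0.69, -0.39 and -0.60 in HSC, LMPP and CLP. Ncr1 and Klrb1c were well above background on neither CLP array. Klrd1 and Gzma were brightest on the null-labelled CLP array, as was Rag1. Hepatocyte markers (4 genes) summed to 0.0733 to 0.373. Cycling genes (5 genes) summed to 129 and 169 in wild type and null-labelled CLP and to 65.6 to 92.8 elsewhere. Erythroid, granulocyte and cycling sums were thus higher in CLP than in the other populations, as was Rag1, and their part in the population differences was not tested. Nor was the part of natural killer cells in the CLP genotype differences.

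The wider pathway was described with lists chosen with earlier results of these data known, each gene by its brightest probe. For the counts that follow, 12.5% of all probes compared were 2-fold brighter and 10.8% dimmer on the null-labelled array in CLP. In HSC these shares were 7.91% and 10.7%, and in LMPP 7.11% and 5.94%. Of 14 measured genes that assist RAG or signal the break, 2 were at least 2-fold brighter in null-labelled CLP: Mad2l2 (1.15) and Atm, the kinase that senses breaks (1.58). A second Atm probe went the other way, from -0.36 in wild type to -2.54 in null-labelled CLP. None was dimmer, the list's median was 0.20, and in HSC and LMPP none reached 2-fold. Among 13 genes of end processing, 3 were brighter in CLP and none dimmer: Poll, a gap filling polymerase (1.29), Aptx (at least 1.74) and Dclre1a (1.48), with a median of -0.11. In HSC, 12 of them compared, Dclre1a was brighter (1.26) and Polm, a polymerase related to Dntt, dimmer (-1.23). Of 8 genes of alternative end joining, a backup route, Parp2 was brighter in CLP (1.16) and no other reached 2-fold between genotypes in any population. The member median of 0.93 in CLP stood beside list medians of 0.20, -0.11 and 0.28.

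**Figure D5:**
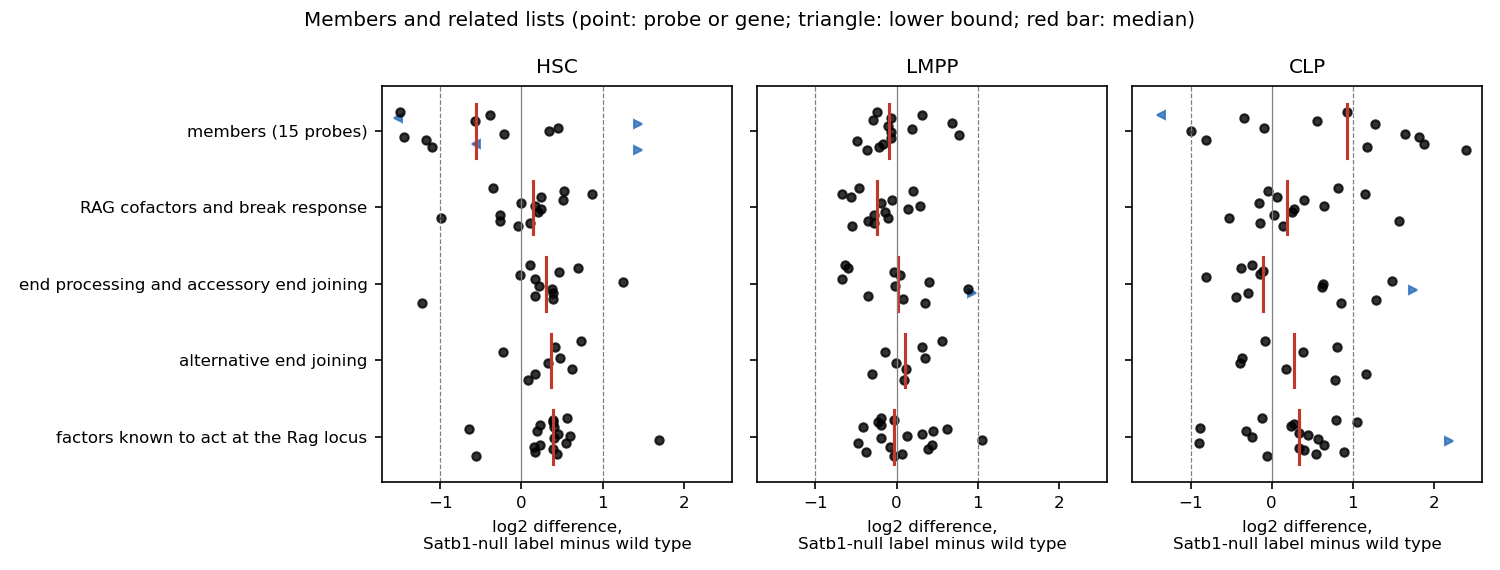
Null-labelled minus wild type difference (log2, horizontal axis) in HSC, LMPP and CLP for the member probes and, below, for the genes of 4 related lists by their brightest probe; points are probes or genes, triangles lower bounds, red bars medians and dashed lines 2-fold. In CLP the member median lies at 0.93 and those of the lists between -0.11 and 0.34.

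Of 20 factors known to act at the Rag locus, each by its brightest probe, 19 could be compared in CLP. There Ebf1 (at least 2.19) and Nfya (1.06) were 2-fold brighter on the null-labelled array and none was dimmer, beside 12.5% and 10.8% of all probes. Pax5, which commits cells to the B lineage, was brighter in HSC (1.70) and LMPP (1.06), the only 1 of the 18 compared to pass 2-fold in either. Over all probes 7.91% and 7.11% were brighter there. In CLP this Pax5 probe differed by 0.57, whereas a second Pax5 probe was 1.94 brighter on the null-labelled array. That second probe was at least 1.32 brighter in HSC and not well above background on either LMPP array. Foxo1, known to switch on both recombinase genes, read 0.77, 1.03 and -0.37 in wild type and 1.16, 1.42 and 0.03 in null-labelled HSC, LMPP and CLP, so it was dimmest in CLP of both genotypes, where Rag1 was brightest. The medians of the list were 0.39, -0.04 and 0.34 in HSC, LMPP and CLP. In the limma fit Pax5 rose from LMPP to CLP (2.95, limma adjusted p = 0.0472) and Poll, a polymerase that fills in ends before ligation, fell by 2.71 over the same step (limma adjusted p = 0.0498). With an array left out the fit called no probe of any gene, so those fits could not test Pax5 or Poll in particular.

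Genes that flank Rag1 and Rag2 on the chromosome gave a local comparison. Traf6, Iftap and Commd9 did not reach 2-fold between genotypes in any population. Prr5l, by its brightest probe, was at least 2.28 dimmer in null-labelled HSC and at least 1.37 brighter in null-labelled CLP, the same signs as Rag2. It read -1.66, -0.74 and -4.88 in wild type and -3.94, -1.63 and -2.76 in null-labelled HSC, LMPP and CLP, of which -4.88 and -3.94 were not well above background. Its second probe was measured only in wild type LMPP (-3.43) and null-labelled HSC (-2.95). In HSC that probe was at least 1.08 brighter on the null-labelled array, so the 2 Prr5l probes had opposite signs there. In CLP it gave no comparison.

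Genes with a course like that of the recombination genes were named by Pearson's r over the 6 arrays, among 4101 or 4102 genes measured on 2 or more arrays with a range of at least 2. The 6 points are the same arrays for every gene, and the values are a description with no test. Levels not well above background entered as they were, such as that of Rag1 in wild type HSC (-6.10). Among the genes named below, Mep1b (-5.19) and Aif1l (-5.48) on the null-labelled CLP array lay under its lowest signal well above background (-4.19). For Rag1 (A_51_P232411) the 5 highest were Lgals3 (0.997), Tmem229b (0.991), Brd9 (0.989), Nlrc4 (0.984) and Nuf2 (0.981). For Rag2 they were Gtpbp3 (0.978), Sgip1 (0.969), Nudt22 (0.965), Pdzd4 (0.958) and Pop1 (0.955). For Dntt they were Mep1b (0.981), Col15a1 (0.933), Nsg2 (0.922), Gas6 (0.912) and Aif1l (0.912). No gene was named for more than 1 of the 3.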

How the data were processed

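The authors deposited scanner files that hold linear spot intensity, made with Agilent Feature Extraction 10.10.1.1 per the file headers (10.10 per the submitters' processing notes), and a table of other processed values. Each column of that deposited table equals the processed intensity times 1 constant an array (5.71 to 8.77), with column medians of 200.1, 140.2, 120.7, 165.3, 145.6 and 124.9 for wild type and then null-labelled HSC, LMPP and CLP, so its scale is linear and uncentred, and only the basis of the constants stays unknown.

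Each array had 62976 spots. Control spots (3671) and outlier spots (154 to 181 an array) were left out, the rest turned to log2 and centred on the array's 75th percentile, and spots of a probe averaged. Probes were named through RefSeq accessions of GRCm38.p6 (27248 named, 28433 unnamed), used for names only, and a probe counted as well above background where at least 0.5 of its spots did. Of the spots, 52.4% to 57.7% were well above background and none was saturated. Arrays were compared in pairs where the brighter was well above background. A dimmer array below background gave a bound, against the probe's own value or, if higher, the lowest signal well above background there (-4.19 to -3.99). The call was 2-fold, and the median scanner error of a difference was 0.206 to 0.207.

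The fit used limma 3.58.1 in R 4.3.3, with values not well above background raised to that lowest signal, and its code was tested on simulated data. Normexp used the median spot signal, since the files have no mean signal. The number of arrays limits the precision, and the p-values cover these samples only. No group had a replicate, so the residual spread behind the SEs and p-values is how far the genotype difference varied among populations. Variation between samples and a genotype effect that differs between populations cannot be told apart in that spread. Before the tests, limma drew each probe's spread towards a value estimated over all probes. That value had 2.346 prior degrees of freedom, beside 2 residual ones, so the SEs and p-values rest on both. Members, lists and tests were chosen with earlier results of these data known. The named genes are every member, up to 4 genes past 2-fold a list and direction, sort markers, and the 5 genes most like Rag1, Rag2 and Dntt. Centring, normalisation, background, source of values, probe choice, filter, threshold and single arrays left out were tried as alternatives. Values of some genes of the lists are not reported here, though the counts, sums and medians of their lists include them.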

Additional observations from a re-analysis of the deposited data

Results flagged for a closer look

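For 3 member probes the difference between the null-labelled and the wild type array had opposite signs in CLP and HSC, each past 2-fold. Rag2 (A_66_P105784) read 1.88 in CLP and -1.10 in HSC. Xrcc4 read 1.82 in CLP and -1.17 in HSC. Nhej1 read 1.64 in CLP and -1.45 in HSC. Each value is a difference of 2 single arrays, and whether the genotype difference itself differs between HSC and CLP was not tested, because no residual degree of freedom would remain. The signs stayed the same under every alternative run, with HSC values between -1.22 and -0.47 for Rag2, -1.30 and -0.23 for Xrcc4 and -1.58 and -0.77 for Nhej1.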

How the results depend on the processing

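Of 154 alternative counts of member probes, 123 were within 1.5 times the reported count. None of the 348 alternative values of the 47 member differences past 2-fold changed sign, and 290 stayed past 2-fold. Normexp with quantile normalisation shrank differences most often. For null-labelled minus wild type it gave 0 in place of 7 probes past 2-fold in HSC and 3 in place of 7 in CLP. In wild type it gave 1 in place of 2 for LMPP minus HSC, 1 in place of 7 for CLP minus LMPP and 0 in place of 6 for CLP minus HSC, and in null-labelled samples 2 in place of 6, 2 in place of 5 and 4 in place of 7. A 3-fold threshold gave 0 and 4 for genotype in HSC and CLP, 0, 1 and 3 for the wild type steps in the same order, and 2 and 3 for LMPP minus HSC and CLP minus LMPP in null-labelled samples. A 1.5-fold threshold gave 2 in place of 0 for genotype in LMPP, 7 for LMPP minus HSC in wild type, and 10 and 8 for the null-labelled steps up to LMPP and on to CLP. In wild type, median centring gave 5 and 4 for LMPP minus HSC and CLP minus LMPP, and for LMPP minus HSC quantile normalisation gave 5 and no detection filter 4. In null-labelled samples, centring on detected probes and the authors' processed values each gave 3 for LMPP minus HSC. The mean over probes gave 4 for genotype in CLP and 3 for CLP minus LMPP in null-labelled samples, and the brightest probe gave 4 and 3 for CLP minus LMPP in wild type and null-labelled samples. The limma fit called 1 member (Rag1) for CLP minus HSC with median centring and with the mean over probes, and 0 under its other alternatives, leaving out arrays included. The cause of these shifts was not tested. Over all probes, limma called 343 higher and 303 lower for CLP minus HSC, but 1000 and 354 with median centring, 117 and 61 with quantile normalisation, 188 and 255 centred on detected probes, 1023 and 647 with normexp, and 0 without a filter. For CLP minus LMPP it called 413 and 296, but 736 and 364, 197 and 91, 293 and 210, 1070 and 907, and 0. For genotype it called 3, but 0 with quantile normalisation, without a filter or with all 6 arrays required, and 1 by brightest probe, mean over probes or normexp. Against the reported centring, the median moved the typical CLP minus HSC difference from -0.11 to 0.30. No paired analysis was possible by replicate number, because each group has 1 array, but the limma fit has population as a term and so compares the genotypes within populations. Probes near background, such as Lig4 in CLP and Rag1 in HSC, have bounds only.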
